A study of Mus musculus with 24 samples.

Results

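The leukocyte adhesion molecules described here are Sele, Icam1, Vcam1, Alcam and F11r, 5 genes found among the 12091 genes of the deposited table. They were picked by symbol from a list of 6 that also names Selp (P-selectin), whose expression was not analysed here. The list was drawn up with earlier results of these data known, among them the lower level of Sele in E0771-LG cells carrying an shRNA against pleiotrophin (PTN). The values of all 5 genes in that contrast are therefore given as a description without a test, and tests are given for the other experiments and for the difference between the cell lines.

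Leukocytes leave the blood by rolling along the vessel wall, arresting on it and crossing it. Selectins carry the rolling step by binding glycosylated ligands, and members of the immunoglobulin superfamily hold the arrested cell through its integrins or line the junctions it passes. In endothelium, TNF and IL-1 switch on E-selectin, ICAM-1 and VCAM-1 through NF-kB, and carcinoma cells can carry some of the same molecules.

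The data are RNA sequencing values of 24 samples in 4 experiments, each with 3 control samples and 3 samples in which PTN was blocked or depleted. The 4T1 samples are orthotopic mammary tumors grown from a BALB/c carcinoma line in female BALB/c mice that were 8 wk old at injection. The MMTV-PyMT samples are mammary tumors of FVB/N mice whose polyoma middle T transgene is driven by the MMTV promoter, treated from 8 to 12 wk of age. Tumor-bearing mice received the control antibody C44 or the anti-PTN antibody 3B10, with a stated dose of 15 mg/kg. E0771 is a C57BL/6 mammary carcinoma line, and E0771-LG was derived from a lung metastasis of it. Both lines were cultured with a pLKO.1 control vector aimed at EGFP (shCtrl) or with 1 shRNA construct against Ptn (shPTN), and all 4 populations were kept under 3 µg/ml puromycin for 6 wk. Each population was selected as a whole, and the 3 replicates of a group are replicates of that population. The authors call them biological replicates, but whether they were grown as separate cultures is not stated. A p-value here therefore measures the spread between these samples. The shRNA and the drift of a population during selection cannot be told apart.

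Values of the MMTV-PyMT, E0771 and E0771-LG samples are log2 CPM, the reads of a gene scaled to a common library total, from which whole reads could be recovered. The depth was 15.63 to 21.12 M reads on genes, with a median of 18.24 M. In MMTV-PyMT tumors every C44 library was deeper, at 18.76 to 19.25 M reads, than every 3B10 library, at 16.26 to 18.44 M. The 4T1 values are normalized for gene length, and their depth is unknown. Levels were not compared between the 4T1 tumors and the other samples.

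The tissue of the samples was checked on lists of marker genes. In the tumors all 11 endothelial markers found in the table, of 13 listed, were above 1 in every sample, so cells that carry E-selectin, ICAM-1 and VCAM-1 by textbook were present. In the cell lines the summed endothelial level was 171 to 255 CPM, but Eng alone, a gene that many mesenchymal cells share, made up most of it with a mean of 207 in E0771 shCtrl and 212 in E0771-LG shCtrl cells. Of the listed endothelial genes, Cldn5 and Emcn had at most 2 reads in any cell sample. Pecam1 had 1 to 24 reads and Cdh5 1 to 48. Other genes of the list were present, with means of 20.5 for Egfl7 and 6.73 for Tie1 in E0771 shCtrl cells. In E0771-LG shCtrl cells the means were 4.99 for Robo4 and 1.77 for Flt1. The leukocyte gene Tyrobp had 0 reads in all cell samples and Ptprc had at most 13, whereas Laptm5 reached a mean of 85.1 in E0771-LG shCtrl cells. The marker lists thus gave no single picture of the cell lines. Of 9 epithelial markers, Krt8 and Epcam were above 1 in every cell sample, and Krt19 and Krt5 had 0 reads in all E0771 samples.

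Sele encodes E-selectin, the selectin of activated endothelium. The gene (ENSMUSG00000026582) lies on the plus strand of chromosome 1 from 164048234 to 164057677 in GRCm38. Icam1 (ENSMUSG00000037405) encodes ICAM-1, the ligand of the leukocyte integrins LFA-1 and Mac-1, and lies on the plus strand of chromosome 9 from 21015985 to 21028817. An antisense gene, Gm47079, overlaps Icam1. It is not in the table, and whether the counting used strand is not stated. The 250 bases before the start of each gene are shown because both genes are textbook NF-kB targets. They are RefSeq promoters of GRCm38.p6, ending at the start that RefSeq gives, read on the plus strand, at chr1:164047984-164048233 for Sele and chr9:21015690-21015939 for Icam1. Capitals mark matches of GGNNNTTCC, the core shared by NF-kB sites, and of TATAAA, each searched on both strands.
Sele: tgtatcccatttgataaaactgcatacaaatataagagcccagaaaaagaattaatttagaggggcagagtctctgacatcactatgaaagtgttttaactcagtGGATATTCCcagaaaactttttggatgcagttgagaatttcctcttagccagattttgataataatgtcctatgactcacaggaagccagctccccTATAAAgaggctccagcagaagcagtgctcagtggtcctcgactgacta
Icam1: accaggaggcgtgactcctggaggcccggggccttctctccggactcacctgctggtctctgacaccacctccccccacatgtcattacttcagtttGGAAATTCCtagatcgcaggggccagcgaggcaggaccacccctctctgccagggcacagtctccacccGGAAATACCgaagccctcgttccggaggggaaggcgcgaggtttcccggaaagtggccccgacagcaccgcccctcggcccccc
The Sele window holds 1 match of GGNNNTTCC, from −145 to −137 relative to the start, and TATAAA from −49 to −44. In Icam1 the match from −153 to −145 fits the motif on both strands and counts on both. A further match lies on the minus strand from −84 to −76, and TATAAA is absent from the window. No match of one motif overlaps a match of the other. GGNNNTTCC occurs in 15.7% and TATAAA in 12.4% of 32851 promoters of this length. Of the 6 listed members 5 had an entry, and Vcam1 being the one without. The windows of Alcam and F11r held 0 matches of either motif, and that of Selp held 1 match of GGNNNTTCC, on the minus strand from −14 to −6. Base composition differed as well, with 40.4% G and C in the Sele window, 65.2% in the Icam1 window and a median of 52.4% over all promoters. A match describes the letters of the window and was not tested for binding.

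Vcam1 encodes VCAM-1, the endothelial ligand of the integrin VLA-4. The gene (ENSMUSG00000027962) is found at 116109949 to 116129688 of chromosome 3, minus strand, where the antisense gene Gm43109, not in the table, overlaps it. Alcam (ENSMUSG00000022636) encodes CD166, an immunoglobulin superfamily protein that binds CD6 on T cells and itself on neighboring cells. It is found at 52248996 to 52454074 of chromosome 16, minus strand. F11r (ENSMUSG00000038235) encodes JAM-A, a tight junction protein of epithelium and endothelium, and lies on the plus strand of chromosome 1 from 171437535 to 171464603.

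Ptn itself was examined first. In E0771 cells it stood at 2.90, 2.18 and 2.28 log2 CPM in the shCtrl replicates and at −0.63, 0.25 and 0.53 in the shPTN replicates. In E0771-LG cells the shCtrl values were 3.65, 4.51 and 3.74, and the shPTN values 1.42, 0.98 and 1.38. In both lines all shPTN samples were lower than the lowest shCtrl sample. By limma with Benjamini-Hochberg adjustment over all genes tested, Ptn fell by 2.40 on the log2 scale in E0771 (SE 0.37, adjusted p = 0.00159), which left 18.9% of the control level. For E0771-LG the log2 difference came to −2.71 (SE 0.28, adjusted p = 6.3e-05 by limma), or 15.3% of control. 3B10 binds the protein, so the transcript is no check of the antibody. In MMTV-PyMT tumors Ptn had 2.80, 2.73 and 3.42 log2 CPM with C44 and 3.28, 2.95 and 4.22 with 3B10, overlapping groups with a difference of 0.50 (SE 0.37, adjusted p = 1 by limma). In 4T1 tumors it was too low to test.

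In E0771 cells Sele was lower with shPTN. In E0771-LG cells the gene was selected for its lower level, so that difference is a description and no second support. The E0771 shCtrl replicates had 4.46, 5.61 and 4.92 log2 CPM, on 380, 995 and 501 reads, and the shPTN replicates had 3.26, 3.25 and 3.54, on 184, 171 and 181 reads. The shCtrl replicates were spread over more than 1 log2 unit, the shPTN replicates lay close together, and the groups did not overlap. Sele fell by 1.65 on the log2 scale (SE 0.25, n = 3 each, adjusted p = 0.00171 by limma), to 31.9% of the control level, with 3 of 3 shPTN samples below the control mean. It passed the threshold in all 16 alternative settings run, with adjusted p from 8.64e-05 to 0.01 by limma. In E0771-LG cells the shCtrl replicates had 5.58, 5.57 and 5.60 log2 CPM, on 827 to 930 reads, and the shPTN replicates 3.93, 3.96 and 3.91, on 261 to 321 reads. Both groups were tight and far apart. The difference of −1.65 chose the gene, so it is given without a test, and the difference between the lines was not tested. In the tumors Sele was close to the lowest values of the table and did not pass the filter on low values. MMTV-PyMT tumors had 0, 10 and 13 reads with C44 and 5, 16 and 4 reads with 3B10, groups that overlap. The library with 0 reads allows up to 0.156 CPM, taken as 3 reads and covering counting error only. In 4T1 tumors the length-normalized log2 values were −0.11, −0.67 and −0.50 with C44 and −0.68, −0.75 and −0.59 with 3B10, also overlapping. A difference in Sele was not detectable in the tumors at these levels.

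**Figure D1:**
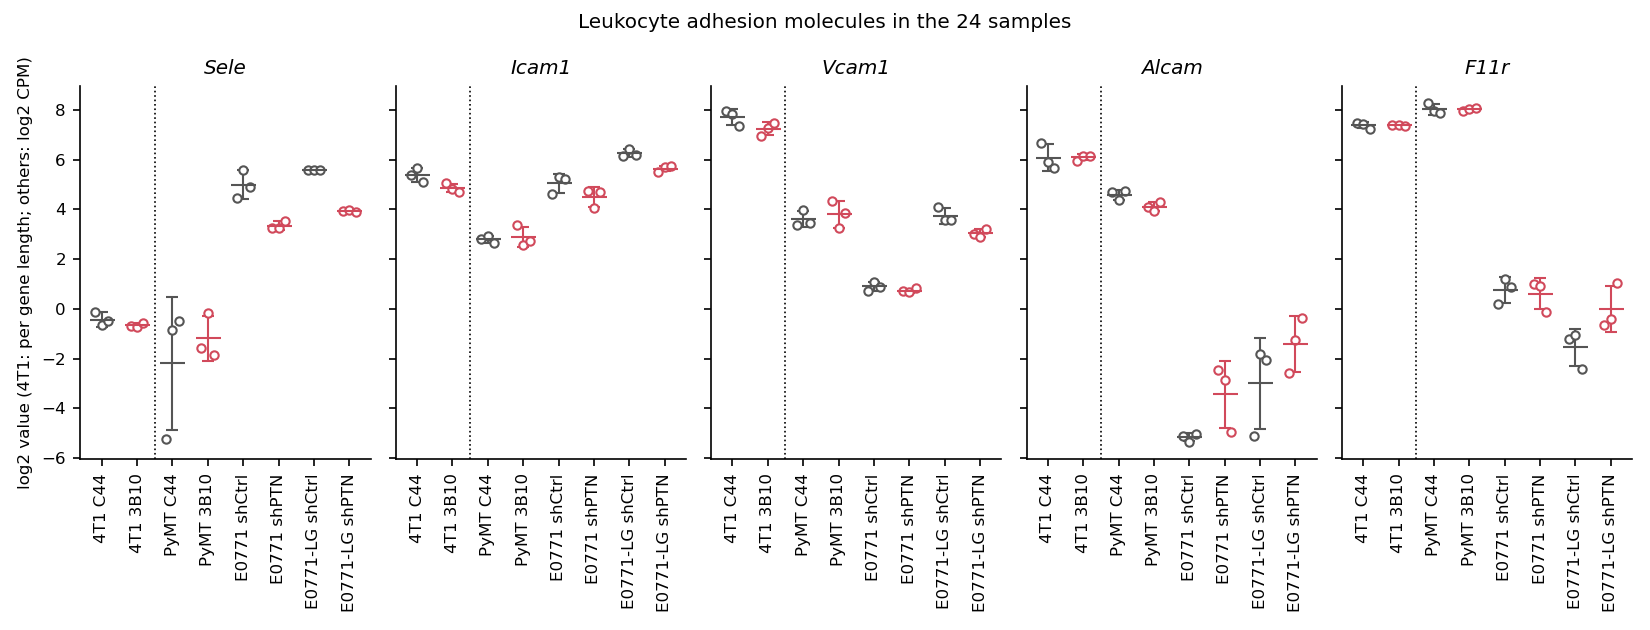
Log2 value (vertical axis) of each member in each of the 24 samples, by group; the 4T1 values left of the dotted line are per gene length and the others are log2 CPM. Points are samples, grey for C44 or shCtrl and red for 3B10 or shPTN, and bars are the mean ± SD of 3 samples. In log2 CPM, Sele lies between 3.25 and 5.61 in the cell lines and below 0 in MMTV-PyMT tumors, whereas F11r lies above 7 in MMTV-PyMT tumors and below 1.5 in the cell lines.

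Icam1 was present in all 4 experiments. In 4T1 tumors the C44 samples had length-normalized log2 values of 5.38, 5.68 and 5.11 and the 3B10 samples 5.05, 4.82 and 4.71. Each 3B10 tumor lay below each C44 tumor, although the closest pair was separated by less than the spread within a group. The difference was −0.53 (SE 0.18, adjusted p = 0.725 by limma) and did not pass the test. In bulk tumor RNA, fewer cells of a type and less RNA per cell cannot be told apart. In MMTV-PyMT tumors the values were 2.80, 2.95 and 2.67 log2 CPM with C44 and 3.36, 2.58 and 2.75 with 3B10. The 3B10 tumors enclosed the C44 tumors, and the difference was 0.09 (SE 0.28, adjusted p = 1 by limma), or −0.14 without 3B10 replicate 1, the highest of them, and 0.25 without 3B10 replicate 2, the lowest. In E0771 cells Icam1 had 4.61, 5.31 and 5.23 log2 CPM with shCtrl and 4.73, 4.05 and 4.72 with shPTN. The lowest shCtrl replicate was below 2 of the shPTN replicates, so the groups overlapped. The difference was −0.55 (SE 0.23, adjusted p = 0.112 by limma) with 3 of 3 shPTN samples below the control mean. Without shCtrl replicate 1, that low sample, it was −0.78 with an adjusted p of 0.0307 by limma, the only 1 of 16 settings past the threshold, and the range over the settings was 0.0307 to 0.311. Without shPTN replicate 2, the lowest shPTN sample, the difference shrank to −0.33. The E0771-LG values, in the contrast that chose the genes, were 6.16, 6.45 and 6.21 with shCtrl and 5.51, 5.70 and 5.75 with shPTN. There the shPTN samples were all below the shCtrl samples, with means of 5.65 and 6.27 and a level of 65% of control.

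Vcam1 was present in all 4 experiments too. In 4T1 tumors its length-normalized log2 values were 7.97, 7.84 and 7.36 with C44 and 6.96, 7.28 and 7.50 with 3B10. The highest 3B10 tumor exceeded the lowest C44 tumor, and the difference of −0.48 (SE 0.20, adjusted p = 0.776 by limma) did not pass. In MMTV-PyMT tumors it had 3.39, 3.97 and 3.47 log2 CPM with C44 and 4.34, 3.25 and 3.84 with 3B10. These groups overlapped throughout, with a difference of 0.20 (SE 0.32, adjusted p = 1 by limma) that became −0.06 without 3B10 replicate 1 and 0.48 without 3B10 replicate 2. In E0771 cells the gene was low, at 0.72, 1.09 and 0.88 with shCtrl and 0.71, 0.66 and 0.82 with shPTN, on 27 to 43 reads per sample. The groups overlapped and differed by −0.17 (SE 0.31, adjusted p = 0.746 by limma), with a range of −0.07 without shCtrl replicate 2 to −0.37 with quantile normalization. In E0771-LG cells it stood higher, at 4.09, 3.56 and 3.57 with shCtrl and 3.01, 2.89 and 3.21 with shPTN. All shPTN samples lay below all shCtrl samples in this contrast, at 61.4% of control.

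Alcam was higher in MMTV-PyMT tumors than in the cell lines. MMTV-PyMT tumors had 4.69, 4.37 and 4.74 log2 CPM with C44 and 4.12, 3.93 and 4.31 with 3B10. The groups did not overlap, but the highest 3B10 tumor came close to the lowest C44 tumor. The difference was −0.48 (SE 0.19, adjusted p = 1 by limma), with 3 of 3 3B10 tumors below the C44 mean. In 4T1 tumors the length-normalized log2 values were 6.69, 5.93 and 5.66 with C44 and 5.97, 6.16 and 6.17 with 3B10. The 3B10 tumors lay inside the C44 range, with a difference of 0.01 (SE 0.25, adjusted p = 0.999 by limma) whose sign turned to −0.02 under quantile normalization and to as low as −0.21 without C44 replicate 3. In the cell lines Alcam was at the limit of detection. All 3 E0771 shCtrl libraries had 0 reads, which allows up to 0.147 to 0.181 CPM per library, and the shPTN libraries had 3, 2 and 0 reads. E0771-LG libraries had 0, 5 and 4 reads with shCtrl and 3, 7 and 13 with shPTN, groups that overlap.

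F11r, too, was higher in MMTV-PyMT tumors than in the cell lines. In 4T1 tumors it had length-normalized log2 values of 7.50, 7.46 and 7.26 with C44 and 7.40, 7.41 and 7.38 with 3B10. In MMTV-PyMT tumors the values were 8.29, 7.95 and 7.89 log2 CPM with C44 and 7.96, 8.04 and 8.08 with 3B10. The 3B10 tumors of each model lay within the C44 range. The differences were −0.01 (SE 0.11, adjusted p = 0.997 by limma) in 4T1 and −0.02 (SE 0.15, adjusted p = 1 by limma) in MMTV-PyMT tumors, and their sign turned when single tumors were left out, with ranges of −0.08 to 0.04 and −0.09 to 0.11. In E0771 cells F11r had 0.18, 1.22 and 0.88 log2 CPM with shCtrl and 1.00, 0.93 and −0.11 with shPTN. The groups overlapped and the difference was −0.15 (SE 0.43, adjusted p = 0.841 by limma), turning to 0.08 without shCtrl replicate 2 and to 0.21 without shPTN replicate 3 and reaching −0.44 without shCtrl replicate 1. In E0771-LG cells, in the contrast that chose the genes, there were 7, 9 and 3 reads with shCtrl and 13, 13 and 35 with shPTN. These counts did not overlap but were too low for the filter.

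Counted by experiment, 4 of the 5 members passed the filter in either tumor model, Sele being the exception in both. In each tumor model 0 of these 4 were called by limma at an adjusted p under 0.05, as were 0% of all genes tested. At an unadjusted p under 0.05 there were 2 of 4 in 4T1 tumors, Icam1 and Vcam1, against 6.27% of all genes, and 1 of 4 in MMTV-PyMT tumors, Alcam, against 2.7%. Limma on voom weights called 0 in MMTV-PyMT tumors, and no other tool was run for 4T1 tumors. The number of members whose 3B10 samples were all lower was 1 in 4T1 tumors, Icam1, where 4.42% of all genes were, and 1 in MMTV-PyMT tumors, Alcam, where 2.27% were. In E0771 cells 4 members passed the filter, all but Alcam. Of these, 1 was called lower, Sele, beside 11.7% of all genes, and 0 were called higher, beside 8.89%. The groups did not overlap, with shPTN lower, for 1 member and for 22.5% of all genes. In E0771-LG cells 3 members passed the filter, Sele, Icam1 and Vcam1, and all 3 had shPTN samples below the shCtrl samples, as did 26.7% of all genes. There 22.1% of all genes were called lower and 24.3% higher, and since the contrast chose the members nothing is read from that count.

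**Figure D2:**
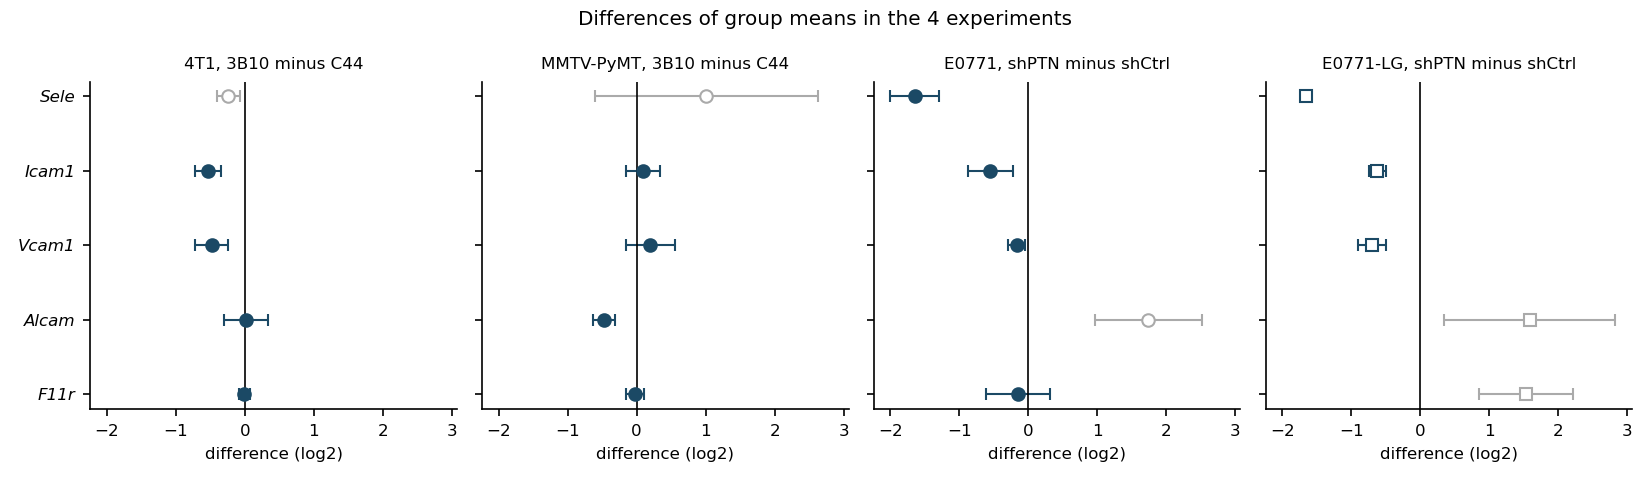
Difference of group means (horizontal axis, log2) of each member in the 4 experiments, PTN-inhibited minus control, with bars of ± 1 SE from the spread of 3 samples per group. Filled circles are members that were tested, open squares are the E0771-LG values that chose the members, and grey symbols are members too low for the filter. Sele in E0771 cells, at −1.65, is the tested member farthest from 0.

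Between the lines, 3 members stood higher in E0771-LG than in E0771 cells and 1 lower, averaged over both vectors. This average does not use the difference between vectors that chose the genes. Each line is its own experiment, so line and experiment cannot be told apart in this comparison. Vcam1 was higher by 2.58 (SE 0.17, adjusted p = 4.76e-09 by limma), and all 6 E0771-LG samples exceeded all 6 E0771 samples. Icam1 was higher by 1.19 (SE 0.14, adjusted p = 3.84e-06 by limma), again with no overlap between the lines. Sele was higher by 0.59 (SE 0.15, adjusted p = 0.00235 by limma), with the E0771-LG samples above the E0771 samples under shPTN but within their range under shCtrl, where E0771 shCtrl replicate 2 reached 5.61. F11r, on few reads, was lower, with a difference of −1.47 (SE 0.41, adjusted p = 0.0051 by limma), with 5 of 6 E0771-LG samples below the E0771 mean. Under shCtrl the lines did not overlap (means of 0.76 for E0771 and −1.55 for E0771-LG), whereas under shPTN they did (0.61 and −0.01), so the average covers unequal differences. F11r passed the filter here mainly through the E0771 samples, since it was too low for it in E0771-LG cells alone, and its difference ran from −1.72 to −0.66 over the settings, the smallest with a pseudocount of 1. Each of these calls held in all alternative settings run, no filter included. Alcam did not pass the filter. Of 10600 genes tested, 42.4% were called lower and 26.3% higher in E0771-LG cells, so a call is common in this comparison. The median of all genes was −0.14, and 38.3% of calls were higher. With the samples centered on their medians this share was 50.6%, with quantile normalization 50.9%. Relative to that shift, by median centring, the differences were 2.71 for Vcam1, 1.32 for Icam1, 0.72 for Sele and −1.33 for F11r. Ptn was higher in E0771-LG cells by 1.36 (SE 0.24, adjusted p = 0.000135 by limma).

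The order of the levels over the 6 conditions measured in log2 CPM differed from gene to gene. Sele was highest in E0771-LG shCtrl (5.58 ± 0.01, SD) and E0771 shCtrl cells, which overlap, followed by E0771-LG shPTN (3.93 ± 0.03), E0771 shPTN (3.35 ± 0.17) and, far below, both MMTV-PyMT groups. Icam1 followed E0771-LG shCtrl, E0771-LG shPTN, E0771 shCtrl, E0771 shPTN and MMTV-PyMT tumors, and overlaps were seen between the E0771 groups and between the tumor groups. Vcam1 was highest in MMTV-PyMT 3B10 (3.81 ± 0.54), E0771-LG shCtrl (3.74 ± 0.31) and MMTV-PyMT C44 tumors (3.61 ± 0.32), each overlapping its neighbor. E0771-LG shPTN cells came next (3.04 ± 0.16) and E0771 cells last, at 0.90 ± 0.18 with shCtrl and 0.73 ± 0.08 with shPTN, which overlap. Alcam and F11r were highest in MMTV-PyMT tumors, with F11r at 8.04 ± 0.22 in C44 and 8.03 ± 0.06 in 3B10 tumors.

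Divided by exon length, the levels can also be compared between genes. In MMTV-PyMT C44 tumors F11r led with 6.63 ± 0.22 log2 CPM per kb (SD, n = 3), before Alcam (1.77 ± 0.20), Icam1 (0.68 ± 0.14), Vcam1 (0.46 ± 0.32) and Sele, with overlap between Icam1 and Vcam1. In E0771 shCtrl cells Sele led with 3.45 ± 0.58 per kb before Icam1 (2.93 ± 0.38), F11r (−0.66 ± 0.53) and Vcam1 (−2.25 ± 0.18), and the values of Sele and Icam1 overlap. In E0771-LG shCtrl cells Icam1 (4.15 ± 0.16) and Sele (4.04 ± 0.01) were the 2 highest per kb, at levels that overlap, before Vcam1 (0.59 ± 0.31). With shPTN, the mean of Icam1 was above that of Sele in both lines, at 2.37 and 1.81 per kb in E0771 cells, where the values overlap, and at 3.53 and 2.39 in E0771-LG cells, where they do not. Thus Sele and Icam1 were the most abundant members per length in the lines and F11r in MMTV-PyMT tumors. In 4T1 tumors, on their own length-normalized scale, Vcam1 (7.73 ± 0.32) and F11r (7.41 ± 0.13) were highest with C44, at values that overlap, and Sele (−0.43 ± 0.29) was lowest.

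**Figure D3:**
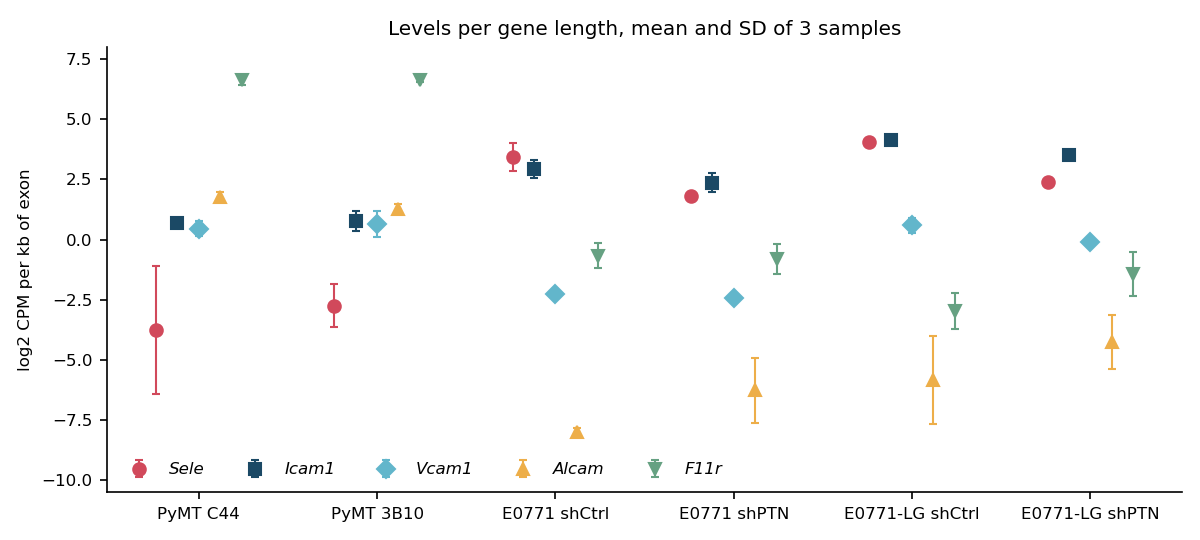
Level of each member per length (vertical axis, log2 CPM per kb of exon) in the 6 conditions with recovered reads, as mean ± SD of 3 samples. F11r is the highest member in MMTV-PyMT tumors at 6.63 and 6.62, and Sele and Icam1 are the highest in the cell lines.

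For Icam1 and Vcam1, the 2 members that passed the filter in all 3 experiments with recovered reads, the most similar genes were sought among 9939 genes over the 18 samples. Pearson r with Icam1 was 0.978 for Cd40, 0.978 for Ccl2 and 0.977 for Gpr137b. With Vcam1 it was 0.979 for Snx18, 0.970 for Amt and 0.965 for Gtpbp10. The 18 samples fall into 3 experiments, so these values mostly rest on the levels of the experiments. Within the 6 samples of one experiment the r of Cd40 with Icam1 was 0.45 for MMTV-PyMT tumors, 0.94 for E0771 cells and −0.08 for E0771-LG cells. That of Ccl2 was −0.14, 0.86 and 0.98 in the same order, and that of Gpr137b was 0.80, 0.27 and 0.91. With Vcam1, Snx18 had 0.58, 0.74 and 0.84, Amt −0.09, 0.66 and 0.91, and Gtpbp10 0.41, 0.49 and 0.75.

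Sums of the markers of other cell types differed between the groups in several experiments. In 4T1 tumors the summed level of the leukocyte list, 11 of 12 genes in the table, was 10800, 7790 and 9880 with C44 and 4480, 7720 and 5020 with 3B10. Lyz2 was its most abundant gene in every tumor, and no listed gene was at 0. Each 3B10 sum lay below each C44 sum, but narrowly, at 7720 against 7790. Lyz2 itself overlapped between the groups, at 5430 to 8310 with C44 and 2560 to 5580 with 3B10. Laptm5, Coro1a, Cd52, Csf1r and Adgre1 overlapped too, whereas Ptprc, Tyrobp, Fcer1g, Cd68 and Cd3e were lower in every 3B10 tumor. The sum of the 9 epithelial markers went the other way in 4T1 tumors, led by Krt18. It was 3320, 3630 and 3610 with C44 and 5150, 4770 and 5310 with 3B10. Epcam, Krt8, Krt18, Krt7 and Krt14 were higher in every 3B10 tumor, whereas Krt19, Krt5, Cdh1 and Cldn7 overlapped between the groups. The part of the leukocyte and epithelial sums in the lower 4T1 means of Icam1 and Vcam1 was not tested. The endothelial sums overlapped in 4T1 tumors, at 319, 607 and 405 with C44 and 363, 510 and 272 with 3B10, and in MMTV-PyMT tumors, at 267, 318 and 195 and at 274, 312 and 204. In MMTV-PyMT tumors the leukocyte sums of 506, 508 and 310 with C44 and 647, 332 and 366 with 3B10 overlapped too, as did the epithelial sums of 6000, 5740 and 3990 and of 4700, 5150 and 4270. Fibroblast sums, over 8 genes, ranged from 1370 to 2110 with C44 and from 1200 to 4390 with 3B10 in 4T1 tumors and from 1210 to 3460 and 1710 to 2280 in MMTV-PyMT tumors. Of 7 platelet and megakaryocyte genes 2 were in the table, Pf4 and Gp1bb. Their sum was 88.2 to 202 with C44 and 97 to 138 with 3B10 in 4T1 tumors, at most 3.43 in MMTV-PyMT tumors and at most 1.14 in the cells.

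In E0771 cells the endothelial sums of 229, 247 and 236 with shCtrl and 241, 255 and 252 with shPTN overlapped, while Sele fell. The leukocyte sums there were 27.2, 43.8 and 36.5 with shCtrl and 89.9, 62.8 and 74.1 with shPTN, higher with shPTN in every sample, and Lyz2 rather than Coro1a or Cd68 became the most abundant gene. Fibroblast sums of 74.8, 101 and 86.3 with shCtrl became 331, 293 and 330 with shPTN, where Col3a1 led, and the epithelial sums of 99.4, 114 and 107 and of 116, 99.6 and 109 overlapped. In E0771-LG cells the endothelial sums were 243, 229 and 221 with shCtrl and 171, 181 and 176 with shPTN, mostly from Eng. Eng ran from 204 to 223 with shCtrl and from 142 to 147 with shPTN. Egfl7 (5.27 to 7.86, then 16.5 to 19.2) and Flt1 (1.56 to 2.02, then 2.7 to 4.02) were higher in every shPTN sample. So was Pecam1, on at most 24 reads, and the other endothelial genes overlapped between the groups. The leukocyte sums were 94.5, 92.4 and 95 with shCtrl and 57.1, 67.1 and 69.9 with shPTN, mostly from Laptm5. The mean of Laptm5 went from 85.1 to 44.4, whereas those of Lyz2 (3.31 to 7.89), Coro1a (4.04 to 7.07) and Cd68 (1.06 to 4.65) were higher with shPTN. The epithelial sums were 159, 204 and 164 with shCtrl and 424, 565 and 516 with shPTN, mostly from Krt8, and the fibroblast sums were 92, 145 and 107 and then 58.3, 66.2 and 73.6, mostly from Pdgfra. None of these 4 sums overlapped between the E0771-LG groups. Their part in the values of the members was not tested.

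**Figure D4:**
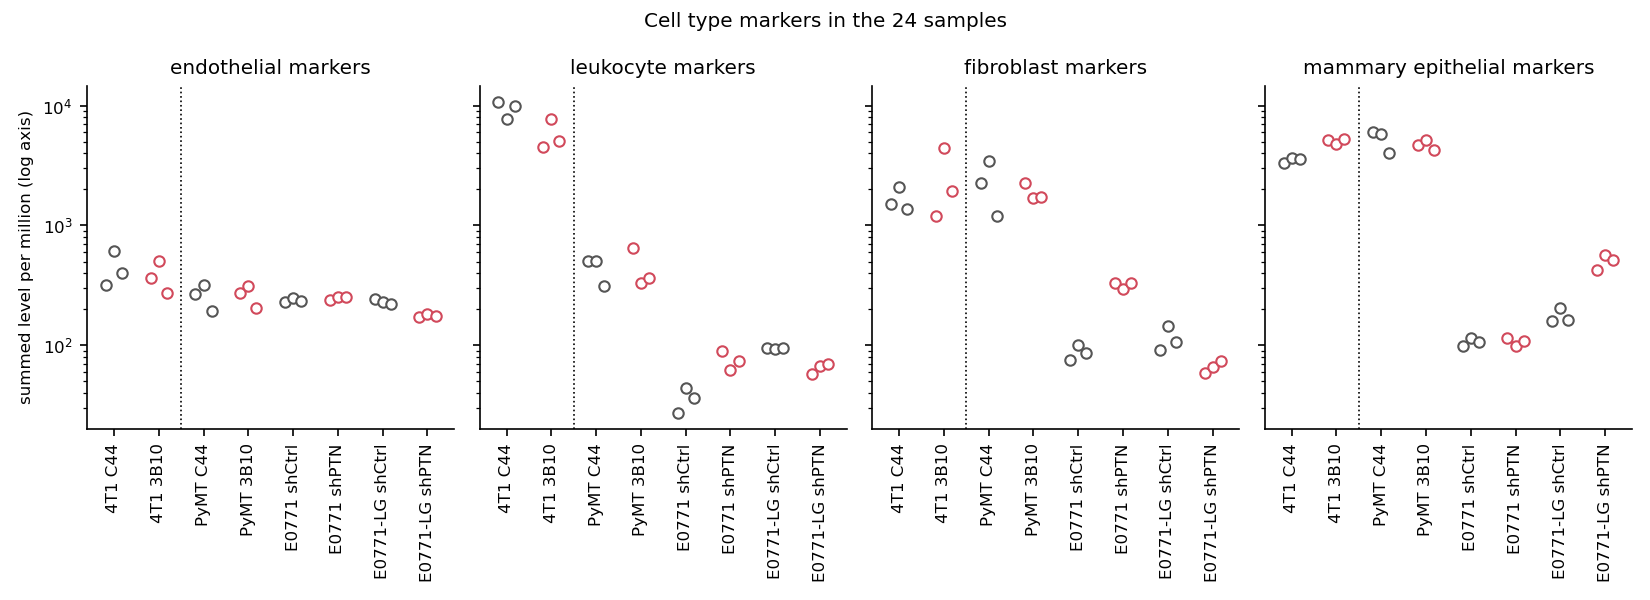
Summed level of 4 lists of marker genes (vertical axis, log scale; CPM, or length-normalized values for 4T1 tumors left of the dotted line) in the 24 samples, grey for C44 or shCtrl and red for 3B10 or shPTN. Leukocyte sums in 4T1 tumors run from 7790 to 10800 with C44 and from 4480 to 7720 with 3B10, and epithelial sums in E0771-LG cells from 159 to 204 with shCtrl and from 424 to 565 with shPTN.

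The partners of these molecules were followed on 6 lists with 98 genes, of which 86 are in the table. The lists cover the leukocyte ligands and counter-receptors, other adhesion receptors of vessel wall and junctions, the enzymes that glycosylate selectin ligands, cytoskeletal and scaffold proteins that anchor the receptors, sheddases that release them, and genes induced by TNF and IL-1.

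In the tumors 0 genes of these lists were called by limma. In 4T1 tumors 85 were tested and 7 had an unadjusted p under 0.05, 6 of them lower with 3B10, beside 6.27% of all genes at that p. The leukocyte ligands and counter-receptors held 5 of these, all lower, among 12 tested, with a median log2 fold change of −0.38 beside 0.01 for all genes. Its smallest p-values were those of Itgam and Itgb2, which form the integrin Mac-1 that binds ICAM-1. Itgam was at 6.31 ± 0.56 with C44 and 5.38 ± 0.19 with 3B10 (SD, n = 3 each), a difference of −0.92 (SE 0.27, adjusted p = 0.722 by limma). Itgb2 was at 7.66 ± 0.58 and 6.77 ± 0.18, a difference of −0.89 (SE 0.27, adjusted p = 0.722 by limma). Both were lower in every 3B10 tumor than in any C44 tumor. So was the sum of leukocyte markers, but narrowly, and its most abundant gene Lyz2 overlapped. The medians of the other lists were −0.16 for adhesion receptors, −0.09 for glycosylation, 0.03 for cytoskeletal partners, −0.20 for sheddases and −0.04 for TNF and IL-1 response genes. Of the other genes named by rule, St3gal3 (−0.45, adjusted p = 0.725 by limma) and Sdcbp (−0.19, adjusted p = 0.88 by limma) were lower and Rhbdf1 (0.34, adjusted p = 0.725 by limma) and Bcl3 (0.27, adjusted p = 0.868 by limma) higher in every 3B10 tumor. The Bcl3 difference was 0.14 without 3B10 replicate 1. Cadm1, Cd47, C1galt1, Adam15 and Birc3 overlapped between groups.

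In MMTV-PyMT tumors 84 genes of the lists were tested, 2 had an unadjusted p under 0.05, beside 2.7% of all genes, and limma on voom weights called 0. Both were leukocyte ligands or counter-receptors. Cd44, a hyaluronan receptor whose glycoforms bind E-selectin, was at 7.15 ± 0.11 with C44 and 6.56 ± 0.05 with 3B10 (SD, n = 3 each), a difference of −0.58 (SE 0.12, adjusted p = 1 by limma). Spn, the sialomucin CD43, was at 0.80 ± 0.11 and −0.74 ± 0.23, a difference of −1.54 (SE 0.41, adjusted p = 1 by limma). Spn was below 1 CPM in every 3B10 tumor and passed the filter only through the C44 tumors, and its difference was −0.79 with a pseudocount of 1. Neither gene overlapped between groups. Of the other genes named by rule, Tpst1 was higher in every 3B10 tumor, by 0.41 (SE 0.26, adjusted p = 1 by limma) or 0.19 without 3B10 replicate 1, and Nectin3, Cd47, Tpst2, Cgn, Magi1, Adam8, Frmd8, Cxcl1 and Irf1 overlapped. The list medians were −0.19 for ligands and counter-receptors, 0.01 for adhesion receptors, 0.05 for glycosylation, −0.01 for cytoskeletal partners, −0.04 for sheddases and −0.19 for TNF and IL-1 response genes, beside 0.05 for all genes.

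In E0771 cells 72 genes of the lists were tested, and 23 fell and 7 rose with shPTN by limma. That is 31.9% lower and 9.72% higher, beside 11.7% and 8.89% of all genes. Their median log2 fold change was −0.18 beside −0.03 for all genes. The TNF and IL-1 response genes held 11 of the falls and 0 rises among 20 tested, with a median of −0.47. Among them the monocyte chemokine gene Ccl2 went from 6.43 ± 0.27 to 4.86 ± 0.50 (log2 CPM ± SD of 3 replicates), a difference of −1.57 (SE 0.24, adjusted p = 0.00284 by limma). Cxcl1 went from 3.91 ± 0.31 to 2.37 ± 0.60, a difference of −1.54 (SE 0.29, adjusted p = 0.00432 by limma). Cxcl10 fell by 1.12 (SE 0.24, adjusted p = 0.01 by limma), and lost its call in a fit of both lines together, where the difference was the same. The count of the list rested on single libraries, with 6 called without shCtrl replicate 2, 6 without shCtrl replicate 3 and 7 without shPTN replicate 3. The count over all lists moved likewise, from 30 to 19, 17 and 19. Sele, itself a TNF and IL-1 response gene in endothelium, kept its call without each of these libraries.

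The selectin ligand enzymes had 3 falls and 1 rise among 11 tested in E0771 cells, with a median of −0.09. That is 27.3% lower and 9.09% higher, beside 11.7% and 8.89% of all genes. B4galt1, a galactosyltransferase, fell by 0.83 (SE 0.10, adjusted p = 0.000385 by limma). C1galt1, which makes core 1 O-glycans, fell by 0.62 (SE 0.11, adjusted p = 0.00335 by limma), and Gcnt1, which branches them to core 2, fell by 0.61 (SE 0.11, adjusted p = 0.00432). Fut4, a fucosyltransferase of selectin ligands, rose by 0.79 (SE 0.14, adjusted p = 0.00347 by limma). These calls held without each library in turn. Among 7 ligands and counter-receptors 2 fell (28.6%) and 1 rose (14.3%), with a median of −0.05. Cd44 went from 8.85 ± 0.21 to 8.35 ± 0.07 (log2 CPM ± SD of 3 replicates), a difference of −0.50 (SE 0.11, adjusted p = 0.0089 by limma), and the integrin subunit gene Itgb7 fell by 0.74 (SE 0.08, adjusted p = 0.000249). The LFA-1 subunit gene Itgal rose by 0.64 (SE 0.17, adjusted p = 0.0229 by limma), a call lost without shCtrl replicate 2, shCtrl replicate 3 or shPTN replicate 3 and in a fit of both lines. Among 11 other adhesion receptors 2 fell and 2 rose, 18.2% each way, with a median of −0.13. L1cam, a neural adhesion molecule, went from 8.52 ± 0.15 to 7.19 ± 0.10, a difference of −1.33 (SE 0.10, adjusted p = 1.32e-05 by limma), and Bcam, a laminin receptor, rose from 1.60 ± 0.68 to 3.41 ± 0.35, by 1.80 (SE 0.33, adjusted p = 0.00383). Pvr fell by 0.65 (adjusted p = 0.0155 by limma) and Mcam rose by 0.69 (adjusted p = 0.0163), but the call of Pvr was lost without shCtrl replicate 2, shCtrl replicate 3 or shPTN replicate 1 and that of Mcam without shPTN replicate 3.

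The cytoskeletal and scaffold partners had 3 falls and 2 rises among 14 tested in E0771 cells, with a median of −0.14. That is 21.4% lower and 14.3% higher, beside 11.7% and 8.89% of all genes. Ezr, for ezrin, which links ICAM-1 and CD44 to actin, fell by 0.61 (SE 0.08, adjusted p = 0.00084 by limma) and kept its call without each library. The others were small, with Msn at −0.33 (adjusted p = 0.025 by limma), Cttn at −0.29 (adjusted p = 0.018), Actn1 at 0.32 (adjusted p = 0.0248) and Sdcbp at 0.26 (adjusted p = 0.0474). Their calls were lost without single libraries, and the count of 5 became 3, 2 and 1 without shCtrl replicates 1, 2 and 3 and 1 without shPTN replicate 3. Sdcbp also lost its call without shPTN replicate 1, without the filter and in a fit of both lines. Of 9 sheddases and regulators 2 fell (22.2%) and 1 rose (11.1%), with a median of −0.02. Adam15 rose by 0.36 (SE 0.07, adjusted p = 0.00613 by limma) but lost its call in a fit of both lines. Rhbdf2 fell by 0.74 (adjusted p = 0.0192 by limma) and Adam8 fell by 1.28 (adjusted p = 0.0376). The count of 3 became 1 without shCtrl replicate 2 or 3, without the filter or in a fit of both lines, and Adam8 lost its call without shPTN replicate 1 or 3 as well. The Adam8 difference was −0.84 with a pseudocount of 1. Of the 22 genes named by rule in E0771 cells, 13 kept their call without each library in turn.

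In E0771-LG cells 72 genes of the lists were tested, and 24 fell and 7 rose by limma. That is 33.3% lower and 9.72% higher, beside 22.1% and 24.3% of all genes. These lists, too, were chosen with earlier results of these data known. The median was −0.27 beside 0.05 for all genes. The cytoskeletal and scaffold partners held 8 of the falls and 0 rises among 14 tested, with a median of −0.38. Tjp1, for the tight junction scaffold ZO-1, which binds JAM-A, fell by 0.58 (SE 0.13, adjusted p = 0.00366 by limma), and Rdx, for radixin, fell by 0.56 (SE 0.10, adjusted p = 0.00132). Both calls held without each library in turn. Among 7 ligands and counter-receptors 3 fell and 1 rose, with a median of −0.57. Glg1, which encodes the E-selectin ligand ESL-1, went from 8.26 ± 0.30 to 7.26 ± 0.04 (log2 CPM ± SD of 3 replicates), a difference of −0.99 (SE 0.13, adjusted p = 0.000267 by limma). Spn fell by 1.45 (SE 0.24, adjusted p = 0.000752 by limma) and Cd44 fell by 0.57 (SE 0.10, adjusted p = 0.000876), whereas Itgb7 rose by 1.17 (SE 0.15, adjusted p = 0.000192). All 4 kept their calls without each library.

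The selectin ligand enzymes had 4 falls and 1 rise among 12 tested in E0771-LG cells, with a median of −0.01. That is 33.3% lower and 8.33% higher, beside 22.1% and 24.3% of all genes. Gcnt1 went from 6.22 ± 0.19 to 5.09 ± 0.09 (log2 CPM ± SD of 3 replicates), a difference of −1.14 (SE 0.12, adjusted p = 8.63e-05 by limma), C1galt1 fell by 0.76 (SE 0.12, adjusted p = 0.000667) and Fut4 fell by 0.75 (SE 0.15, adjusted p = 0.00218). B4galt4, below 1 CPM in every shCtrl sample and past the filter only through the shPTN samples, rose by 2.00 (SE 0.59, adjusted p = 0.0177 by limma), a call lost without shPTN replicate 2 or shPTN replicate 3. Its difference was 1.06 with a pseudocount of 1. Of 21 TNF and IL-1 response genes 5 fell and 2 rose, with a median of −0.26. These are 23.8% lower, close to the share of all genes, and 9.52% higher, below it. Ccl2 fell by 1.07 (SE 0.11, adjusted p = 5.71e-05 by limma), Ccl7 fell by 1.04 (SE 0.13, adjusted p = 0.000192) and Csf1 fell by 0.82 (SE 0.12, adjusted p = 0.000503). Traf1 rose by 0.55 (SE 0.16, adjusted p = 0.0149 by limma) and Nfkbia by 0.42 (SE 0.12, adjusted p = 0.0154), calls that were lost without shPTN replicate 2 and, for Nfkbia, without shCtrl replicate 3. Traf1 also lost its call in a fit of both lines.

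Among 9 other adhesion receptors tested in E0771-LG cells 2 fell and 1 rose, with a median of −0.31. That is 22.2% lower and 11.1% higher, beside 22.1% and 24.3% of all genes. Esam, an adhesion molecule of endothelial junctions and platelets, rose from 0.19 ± 0.95 to 2.70 ± 0.32 log2 CPM (SD, n = 3 each), by 2.51 (SE 0.45, adjusted p = 0.00133 by limma). With shCtrl values of −0.59, 1.25 and −0.09 it passed the filter mainly through the shPTN samples. Its call held in all alternative settings run, no filter included, with differences from 1.77 to 3.04. Mcam fell by 0.76 (adjusted p = 0.014 by limma) and Icam2 fell by 0.53 (adjusted p = 0.0473). The count of 3 became 1 without shCtrl replicate 3 or shPTN replicate 2, and of the libraries left out in turn only shPTN replicate 1 spared the call of Icam2, which was also lost with voom weights, without the filter and in a fit of both lines. Of 9 sheddases and regulators 2 fell and 2 rose, with a median of −0.11. At 22.2% each way this was close to the shares of all genes. Adam10, the main sheddase of several adhesion receptors, fell by 0.44 (SE 0.11, adjusted p = 0.00642 by limma) and kept its call without each library. Rhbdf1 rose by 0.41 (adjusted p = 0.0124 by limma) and Adam15 by 0.45 (adjusted p = 0.0282), and Rhbdf2 fell by 0.57 (adjusted p = 0.0357). The count of 4 became 2 without shCtrl replicate 3, 1 without shPTN replicate 2 and 2 without shPTN replicate 3, and Rhbdf2 also lost its call without shCtrl replicate 2 or shPTN replicate 1. Without the filter Rhbdf2 and Adam15 were not called. The difference of Rhbdf2 was −0.34 without shPTN replicate 1 and that of Adam15 was 0.28 without shCtrl replicate 1. Of 23 genes named by rule in E0771-LG cells 15 kept their call without each library in turn. Differences between the lines in the effect of shPTN on these genes were not tested.

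**Figure D5:**
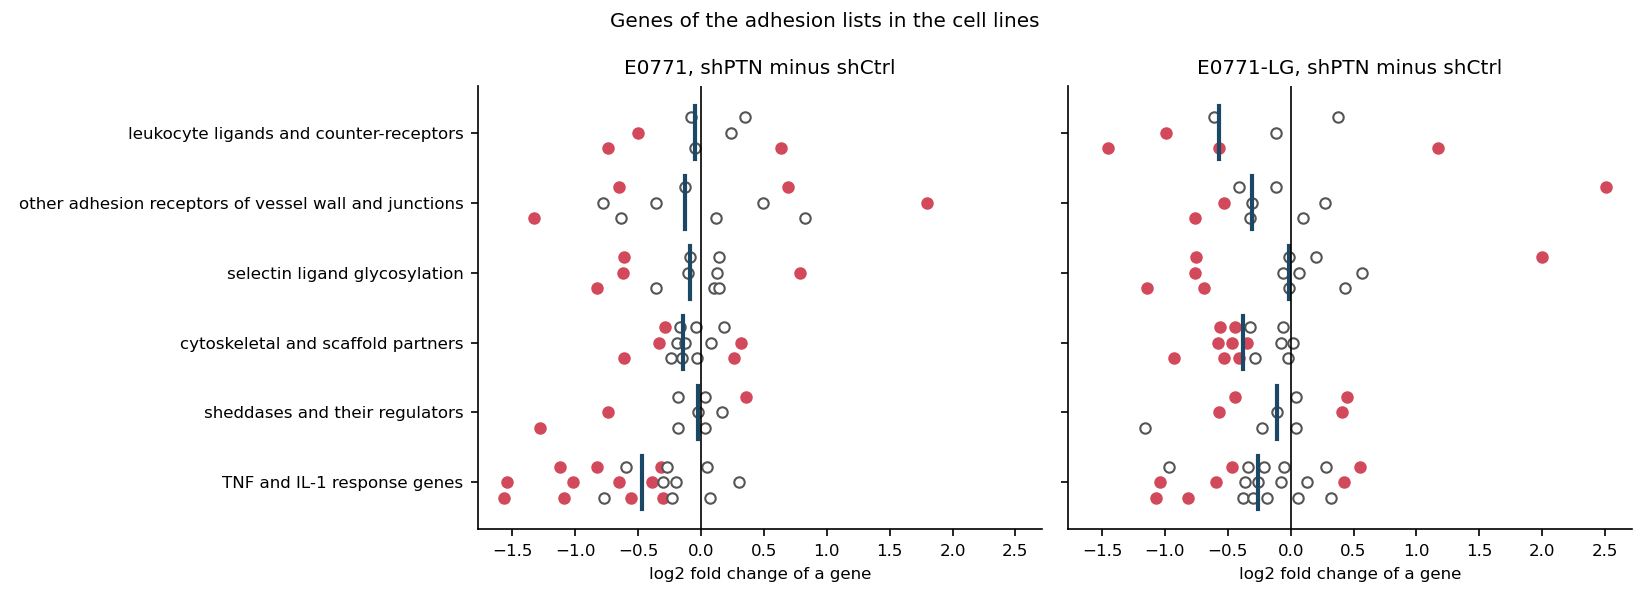
Log2 fold change with shPTN (horizontal axis) of each gene tested from the 6 lists, in E0771 cells (left) and E0771-LG cells (right). Red points are genes called by limma at an adjusted p under 0.05, open points are the others, and blue bars are list medians, which reach −0.47 for TNF and IL-1 response genes in E0771 and −0.57 for ligands and counter-receptors in E0771-LG cells.

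Between the lines, 74 genes of the lists were tested, and 26 were higher and 26 lower in E0771-LG cells by limma, averaged over both vectors. That is 35.1% each way, beside 26.3% higher and 42.4% lower among all genes. The TNF and IL-1 response genes, with 14 higher and 0 lower among 21 tested and a median of 0.58, stood with Vcam1, Icam1 and Sele on the higher side. The median of all genes was −0.14, as above. Here too each line is its own experiment, and the 2 cannot be told apart. The other adhesion receptors had 8 lower and 2 higher among 11 (median −0.82), the sheddases 6 lower and 3 higher among 9 (median −0.34) and the cytoskeletal partners 6 lower and 2 higher among 14 (median −0.00). Ligands and counter-receptors had 3 lower and 2 higher among 7 (median −0.12), and the selectin ligand enzymes 3 lower and 3 higher among 12 (median −0.01).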

How the data were processed

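The processing notes of the authors name mm10 (GRCm38), HISAT2, featureCounts, limma and edgeR, without saying which step made the values. The deposited table holds log2 values that the authors made. In 18 samples 100% of the values below 1000 reads lie within 0.01 reads of a whole number with an offset of 0.5 once scaled by the lowest value of the sample, so reads were recovered. Larger values were not checked in this way. The 4T1 values behave as length-normalized and gave no reads. The planned count test was therefore replaced by limma on the log2 values.

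Each experiment was fitted alone (3 versus 3) with limma 3.58.1 in R 4.3.3, eBayes with trend and robust, and Benjamini-Hochberg adjustment over all genes tested. A gene was tested when its value, off the log scale and above the lowest of the sample, was at least 1 in 3 samples. Members and lists were chosen with earlier results of these data known. E0771-LG values of the members were not tested, since that contrast chose them.

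Alternatives were no filter, a filter of 5, pseudocounts of 1 and 0.1, eBayes not robust, quantile normalization, median centring, a replicate block, voom weights, one fit of both lines and leaving out each sample. Named genes are all members, Ptn, up to 3 genes per list and direction with the largest change among adjusted p under 0.05 and groups that do not overlap in the cell lines, and in tumors the 2 genes per list with the smallest unadjusted p. For members tested in all 3 experiments with reads, the 3 most similar genes by Pearson r were added. A self-test on simulated data passed. Tables and figures used Python 3.11.15, numpy 2.4.6, pandas 2.3.3 and matplotlib 3.10.9. Results for some genes of the lists are not reported here.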

Additional observations from a re-analysis of the deposited data

Results flagged for a closer look

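For the genes below, every sample with PTN inhibited lay on one side of the control mean in one model and on the other side in the other. The value is the second log2 fold change minus the first, and the difference was not tested.

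Between 4T1 and MMTV-PyMT tumors, Birc3 (−0.29 and 0.12) differed by 0.41 and Rhbdf1 (0.34 and −0.08) by −0.42. Neither gene was called in either model.

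Between E0771 and E0771-LG cells, Actn1 (0.32 and −0.44) differed by −0.77, Csf1 (0.30 and −0.82) by −1.12, Esam (−0.64 and 2.51) by 3.15 and Fut4 (0.79 and −0.75) by −1.54. Icam2 (0.83 and −0.53) differed by −1.36, Itgal (0.64 and −0.61) by −1.25, Itgb7 (−0.74 and 1.17) by 1.91 and Mcam (0.69 and −0.76) by −1.45. Nfkbia (−0.56 and 0.42) differed by 0.98, Sdcbp (0.26 and −0.08) by −0.34, Spn (0.35 and −1.45) by −1.80 and Traf1 (−1.09 and 0.55) by 1.63. Some of these changes were not called by limma. In E0771 cells these were Csf1, Esam, Icam2 and Spn (adjusted p = 0.0575, 0.0739, 0.227 and 0.505 by limma). In E0771-LG cells they were Itgal and Sdcbp (adjusted p = 0.0921 and 0.534 by limma). The share of all genes that meet the same rule is not given.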

How the results depend on the processing

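Of the counts, 612 stayed within a ratio of 1.5 over the settings and 20 moved further. Of the fold changes of members, 287 kept their sign and call status (for E0771-LG, their value within 1 SD), 14 reversed, 3 moved by more and 1 gained a call. Of the fold changes of pathway genes, 1001 kept their sign and call status, 62 lost their call, whatever their size, and 1 reversed. The cause was not tested.

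In 4T1 tumors Alcam (0.01) was −0.02 with quantile normalization and −0.21 to 0.31 when single tumors were left out, and F11r (−0.01) was −0.08 to 0.04. In MMTV-PyMT tumors Icam1 was −0.14 to 0.25, Vcam1 −0.06 to 0.48, F11r −0.09 to 0.11 and Frmd8 −0.00 to 0.23. In E0771 cells F11r was −0.44 to 0.21, members past the threshold were 1 to 2, and pathway genes past the threshold were 17 to 30.

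In E0771-LG cells Sele was −1.59 with a pseudocount of 1, −1.70 with quantile normalization and −1.68 with median centring. No count of members past the threshold is given there, because that contrast chose them. Voom weights were not run for 4T1 tumors, since reads could not be recovered. With replicate number as a block, pathway genes past the threshold were 31 for E0771, 33 for E0771-LG and 0 for both tumor models.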
